A study of Mus musculus with 23 samples.

Results

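The MHC class I antigen presentation genes are described here in the livers of 15 female mice by RNA sequencing. The members are 10 genes of the 27179 in the count table, matched by gene symbol, and all 10 were found and had counts in every mouse. They are the heavy chain genes *H2-K1* and *H2-D1*, the light chain gene *B2m*, the peptide transporter genes *Tap1* and *Tap2*, the loading factor gene *Tapbp*, the immunoproteasome subunit genes *Psmb8*, *Psmb9* and *Psmb10*, and the transactivator gene *Nlrc5*.

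The 6 Ctrl mice had wild-type Braf, the 6 ABpIF/+ mice carried a Braf allele that Cre switches to BrafV600E, and the 3 ABpIF/F mice carried that allele with both copies of Icmt floxed. Ctrl and ABpIF/+ mice were Icmt flx/+, ABpIF/F mice were Icmt flx/flx, and all 15 were Trp53 flx/flx with Alb-Cre, so that no group had intact Trp53 or lacked Cre. The labels write Braf as wt in Ctrl and as +/+ in both other groups, and the Braf allele is given here as in the series' design. Cre under the albumin promoter acts in hepatocytes, so leukocytes, endothelial cells and stellate cells in the same tissue keep unrecombined alleles. The paper states that the floxed *Icmt* allele has reduced expression even without Cre, and that deletion in hepatocytes may be incomplete. *Icmt* encodes the enzyme that methylates the carboxyl end of prenylated proteins such as RAS. Tissue was taken free of visible tumors, and the labels give no ages. The paper reports different ages for the ABpIF/F mice. It states that all of them developed liver tumors, with a burden that correlated with age. Among ABpIF/+ mice it reports visible surface tumors in only some. The part of age and tumor burden in the group differences was not tested. ABpIF/F mice were rarely born and no more than these were obtained by the study.

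MHC class I molecules show fragments of a cell's own proteins at its surface, where CD8 T cells and natural killer cells read them. Proteasomes cut the proteins, the TAP1 and TAP2 transporter carries the peptides into the endoplasmic reticulum, and tapasin, the product of *Tapbp*, holds the heavy chain and β2-microglobulin beside the transporter until a peptide is bound. Interferon-γ acts through factors such as IRF1 to raise transcription of these genes, and it replaces the constitutive catalytic subunits of the proteasome (PSMB5, PSMB6 and PSMB7) with the immunoproteasome subunits (PSMB8, PSMB9 and PSMB10). NLRC5 is the transactivator that assembles at class I promoters together with the RFX, CREB and NF-Y factors. Hepatocytes at rest are known for low levels of class I molecules and of immunoproteasomes, which leukocytes and endothelial cells hold in larger amounts.

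Between 24742910 and 32262649 counts per mouse fell on genes. Values are given as CPM, a gene's counts relative to its library's total on a common scale, after adjusting the totals by the TMM method. *Icmt* was at 27.8 to 34.7 CPM in Ctrl, 27.8 to 37.4 in ABpIF/+ and 15.2 to 16.6 in ABpIF/F livers, so the targeted gene separated the labelled ABpIF/F mice from the others. The summed level of 10 hepatocyte markers, led by *Alb* and *Trf*, was 119635 to 163955 CPM in Ctrl, 227009 to 316117 in ABpIF/+ and 182493 to 282031 in ABpIF/F livers, and none of them was at 0, as the tissue label gives. Ctrl mouse 2 was the only 1 of 6 Ctrl mice with the longer strain label, naming an additional cross, that all 9 ABpIF/+ and ABpIF/F mice carry. Apart from that mouse, Ctrl differed from both other groups in strain label as well as in Braf genotype. The design cannot tell these apart. A clock gene score, the mean log2 CPM of *Bmal1*, *Npas2*, *Clock*, *Cry1* and *Nfil3* minus that of *Dbp*, *Nr1d1*, *Nr1d2*, *Per2*, *Per3*, *Tef* and *Ciart*, was -0.96, 1.76 and 0.10 in the ABpIF/F mice and 0.53 in Ctrl mouse 1, but between -4.99 and -3.41 in the other 11 mice. The score thus largely followed the ABpIF/F group, and a fit with the score as a covariate can hardly tell it apart from genotype. Mice are numbered within their group only to name them, and nothing links the numbers of different groups.

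Sequences before the start sites are shown for the members whose regulation is described below, from RefSeq on GRCm38.p6. A window of 250 bases before the start was given for 8 of the 10 members, with 9 windows because *H2-K1* had another start, and none for *Tap2* and *Nlrc5*. The windows were searched on both strands for GAAANNGAA (the core of an interferon-stimulated response element), TTCNNNGAA (the gamma-activated site), TGACGT and TGACGC (the X2 box or CRE type), CCAAT (the Y box that NF-Y binds) and GGGANNNCC (a kappa B site). The shares of all 32851 RefSeq windows of this length that held them were 7.13%, 7.02%, 6.47%, 6.12%, 33.8% and 15.8%, in that order. Matches are capitalized and are descriptions of letters, not of binding. The *H2-K1* window on the minus strand, chr17:34000348-34000597, and the *B2m* window on the plus strand, chr2:122147437-122147685, lie outside annotated exons.
H2-K1: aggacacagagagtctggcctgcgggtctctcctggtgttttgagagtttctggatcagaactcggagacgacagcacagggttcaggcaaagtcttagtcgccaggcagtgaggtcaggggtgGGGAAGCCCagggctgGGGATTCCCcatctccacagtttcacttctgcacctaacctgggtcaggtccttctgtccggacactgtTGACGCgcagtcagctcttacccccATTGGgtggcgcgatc
B2m: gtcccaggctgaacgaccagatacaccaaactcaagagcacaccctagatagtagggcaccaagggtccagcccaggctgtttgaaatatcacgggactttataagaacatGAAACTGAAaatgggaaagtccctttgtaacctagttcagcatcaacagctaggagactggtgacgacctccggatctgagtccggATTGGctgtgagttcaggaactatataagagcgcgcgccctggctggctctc
The windows of *H2-D1*, *Psmb8*, *Psmb9*, *Tap1* and *Tapbp* lie within exons annotated in GENCODE M21, and those of the first 4 are shown as stretches of 30 bases around a match. The *H2-D1* stretches are on the plus strand at chr17:35262913-35262942 and chr17:35262981-35263010, and they hold the same kappa B letters and the same X2 letters as *H2-K1*.
H2-D1 kappa B: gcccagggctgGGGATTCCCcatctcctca
H2-D1 X2: ccgggacactgaTGACGCgctggcaggtct
The *Psmb8* stretch, plus strand at chr17:34198087-34198116, holds the only gamma-activated site letters among the members' windows.
Psmb8: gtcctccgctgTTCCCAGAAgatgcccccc
*Psmb9* and *Tap1* are transcribed away from each other from starts 226 bases apart, and their windows share 225 bases, chr17:34187331-34187555. Within the shared bases the search found 1 match, a CCAAT, shown here on the *Tap1* strand at chr17:34187321-34187350.
Tap1 and Psmb9: ggggctcggctttCCAATcagcggctgcgc
The letters GAAANNGAA were found in the *B2m* window alone, and TGACGT in no member's window. Other forms of the interferon-stimulated response element were not searched for, so the search does not show that the other windows lack one. The window of *Psmb10* held none of the 6 motifs.

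Of the 10 genes, 7 lie on chromosome 17, in or beside the major histocompatibility complex. On GRCm38 with GENCODE M21, *Tapbp* spans 33915899 to 33929292, *H2-K1* 33996017 to 34000347, *Psmb9* 34181987 to 34187764, *Tap1* 34187553 to 34197225, *Psmb8* 34197721 to 34201454, *Tap2* 34203527 to 34216321 and *H2-D1* 35262730 to 35267499. *B2m* is on chromosome 2 from 122147686 to 122153083, *Nlrc5* on chromosome 8 from 94434356 to 94527272, and *Psmb10* on chromosome 8 from 105935735 to 105938444. The annotated *Psmb9* and *Tap1* genes overlap head to head, and 8 of the members overlap some other gene. The strand setting of the counting is not given in the sources used here, so reads in such overlaps cannot be assigned with certainty. *H2-K1* and *H2-D1* have near-identical relatives in the same complex, and their counts are uncertain to the extent that reads were split among them.

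Levels of different genes were compared per kilobase of the longest principal transcript. In Ctrl livers *B2m* stood highest at 1697 ± 270 CPM per kb (SD, n = 6), followed by *H2-K1* at 900 ± 201 and *H2-D1* at 168 ± 29.9. *Psmb10* (37.7 ± 9.27) and *Tapbp* (36.4 ± 3.55) came next with *Psmb8* at 23.0 ± 5.35, and their ranges over the mice overlapped. *Psmb9* (17.4 ± 2.59) overlapped with *Psmb8*, *Tap1* was at 9.95 ± 1.00 and *Tap2* at 7.27 ± 0.799. *Nlrc5* was lowest at 3.15 ± 0.526 CPM per kb. The ranges of the heavy and light chains lay above those of the other 7 members. In ABpIF/+ livers *Psmb9*, at 7.49 ± 1.43 CPM per kb, overlapped with *Tap1* and *Tap2* (7.33 ± 0.386) rather than with *Psmb8* (20.3 ± 1.33). In ABpIF/F livers *Tap1* had moved up to 21.7 ± 4.43 CPM per kb (SD, n = 3) and overlapped with *Psmb9* (18.0 ± 0.894).

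**Figure D1:**
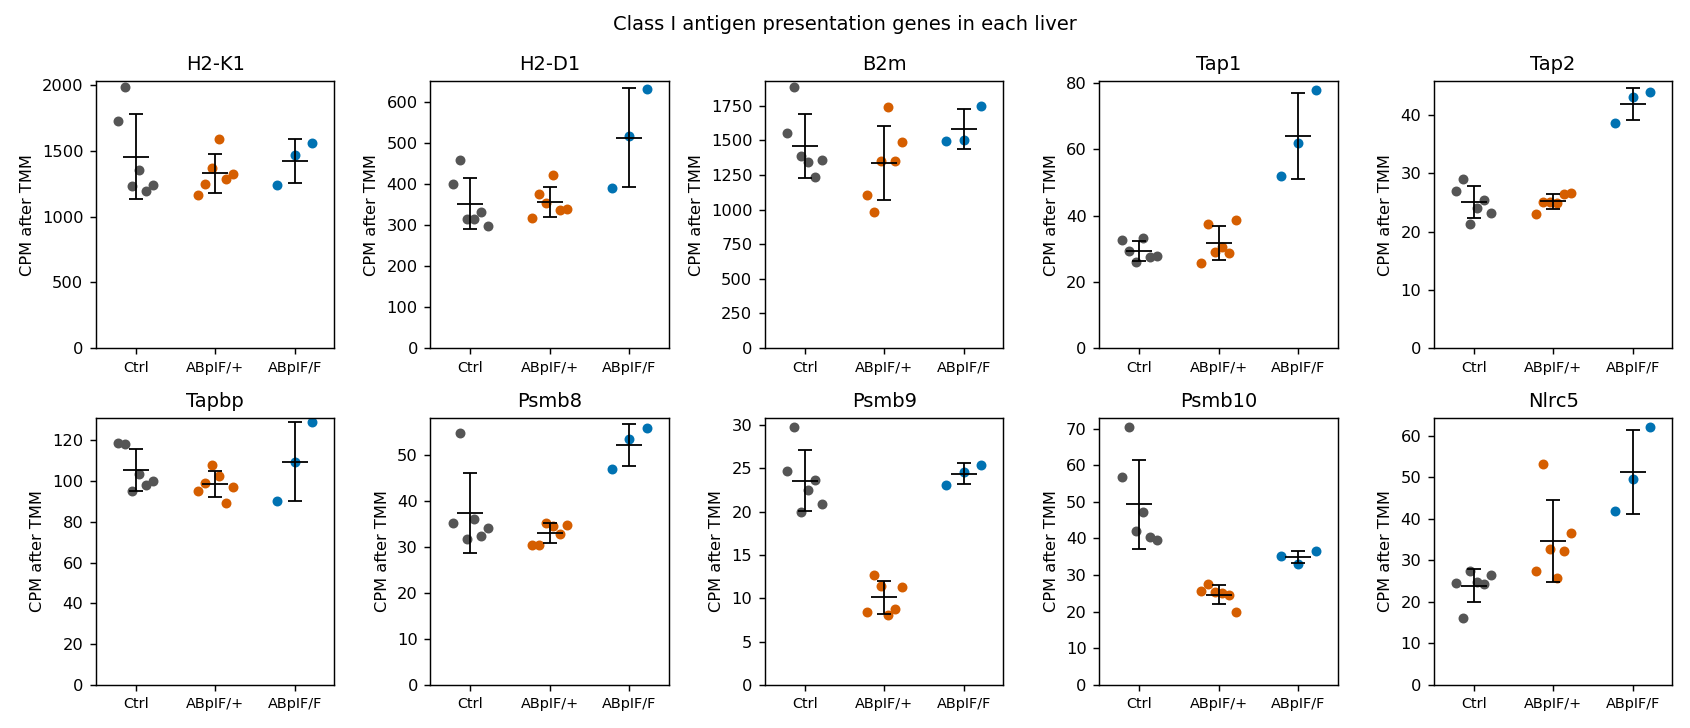
Level of each of the 10 genes (CPM after TMM, linear axis from 0) in the 6 Ctrl, 6 ABpIF/+ and 3 ABpIF/F livers. Each point is a mouse and the bar is the mean ± SD. Psmb9 and Psmb10 lie lower in all 6 ABpIF/+ livers than in any Ctrl liver, and Tap1 and Tap2 lie higher in all 3 ABpIF/F livers than in any other liver.

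The design gives 3 comparisons. BrafV600E livers with Icmt flx/+ are set against Ctrl (ABpIF/+ vs Ctrl). Those with Icmt flx/flx are set against Ctrl, from which they also differ in Icmt genotype (ABpIF/F vs Ctrl). Within BrafV600E livers, Icmt flx/flx is set against flx/+ (ABpIF/F vs ABpIF/+). All 3 comparisons share groups with one another, so the results are given side by side. Calls required an adjusted p below 0.01 in edgeR's quasi-likelihood test, adjusted by Benjamini-Hochberg over 27179 genes, together with a change of at least 2-fold, a log2 fold change of 1. Fold changes below are log2 values with their SE. In ABpIF/+ vs Ctrl, 0 members were called higher and 2, *Psmb9* and *Psmb10*, lower, while of the 12316 genes averaging 1 CPM or more, 8.21% were called higher and 9.39% lower. In ABpIF/F vs Ctrl, *Tap1* and *Nlrc5* were called higher and 0 members lower, against 7.53% and 5.04% of genes. In ABpIF/F vs ABpIF/+, *Tap1* and *Psmb9* were called higher and 0 lower, against 8.5% and 3.72%. The members' median log2 fold changes were -0.11, 0.30 and 0.54 in the 3 comparisons, where the medians over the 12316 genes were 0.02, 0.00 and -0.04. Regardless of fold, members that passed the p threshold numbered 0 higher and 2 lower, 3 higher and 0 lower, and 4 higher and 0 lower, where the shares of genes were 18.3% and 17.8%, 11.1% and 10.3%, and 11.3% and 9.11%. The genes so added were *Tap2* in both comparisons of ABpIF/F mice and *Psmb8* in ABpIF/F vs ABpIF/+.

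**Figure D2:**
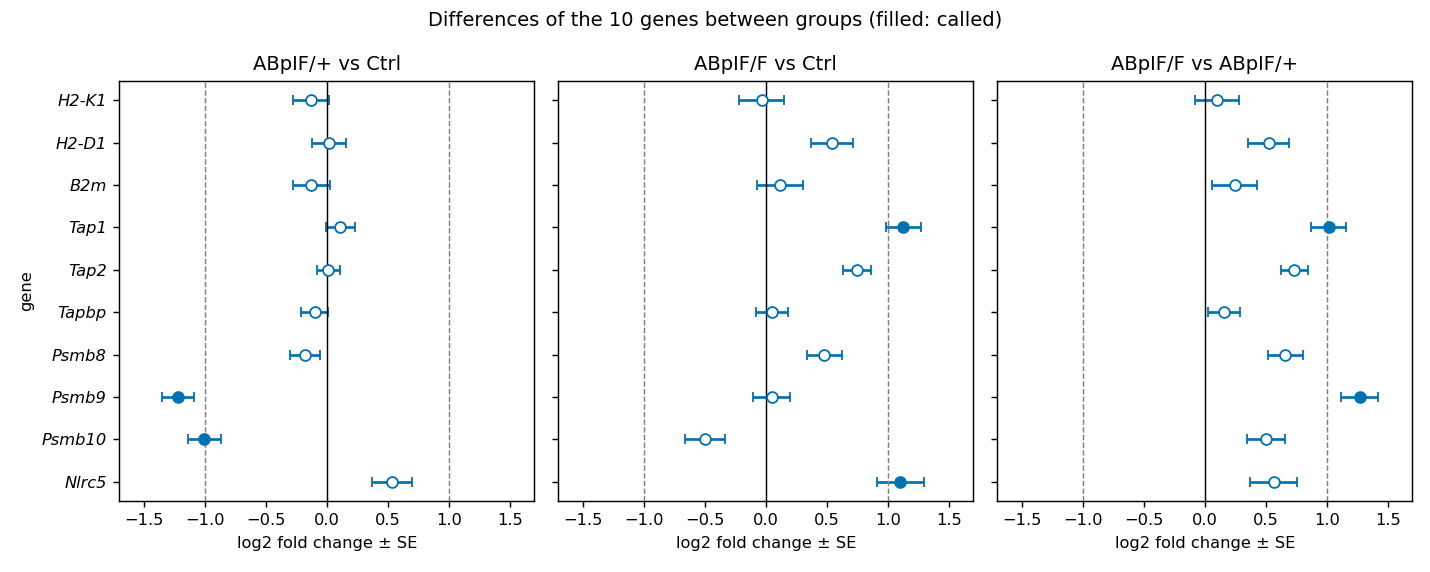
Log2 fold change ± SE of each member in the 3 comparisons from 1 edgeR fit over 15 mice, with dashed lines at 2-fold in each direction. Filled points are called genes, which are Psmb9 and Psmb10 in ABpIF/+ vs Ctrl, Tap1 and Nlrc5 in ABpIF/F vs Ctrl, and Tap1 and Psmb9 in ABpIF/F vs ABpIF/+.

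The genes of the class I molecule itself were not called in any comparison. *H2-K1*, the K heavy chain, ranged from 1198 to 1989 CPM in Ctrl livers with a median of 1298, from 1164 to 1592 in ABpIF/+ with a median of 1303, and was at 1238, 1472 and 1560 in the ABpIF/F mice. The 3 groups overlapped, and the fold changes were -0.13 ± 0.15, -0.03 ± 0.18 and 0.10 ± 0.18. *B2m*, the light chain that every class I heavy chain needs, ranged from 1233 to 1884 CPM in Ctrl (median 1373) and from 984 to 1738 in ABpIF/+ (median 1353), and was at 1497, 1503 and 1746 in ABpIF/F livers. Its groups overlapped as well, with fold changes of -0.13 ± 0.15, 0.12 ± 0.18 and 0.24 ± 0.18. *H2-D1*, the D heavy chain, was at 297 to 458 CPM in Ctrl (median 323), at 317 to 421 in ABpIF/+ (median 347), and at 390, 516 and 632 in ABpIF/F livers. ABpIF/F mouse 1 lay within the range of the other groups and mice 2 and 3 lay above it. The *H2-D1* fold change was 0.54 ± 0.17 against Ctrl (adjusted p = 0.0287) and 0.52 ± 0.17 against ABpIF/+ (adjusted p = 0.0344), both short of the threshold in edgeR's test. Ctrl mouse 2 held the highest *H2-K1* and *B2m* values of all 15 livers.

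The transporter genes were higher in ABpIF/F livers than in both other groups. *Tap1*, which encodes one chain of the transporter, was at 25.9 to 33.2 CPM in Ctrl (median 28.6), at 25.8 to 38.6 in ABpIF/+ (median 29.8), and at 52.1, 61.9 and 78.0 in ABpIF/F livers. All 3 ABpIF/F mice lay above the 12 others. The difference was 1.12 ± 0.14 against Ctrl (adjusted p = 6.25e-06) and 1.01 ± 0.14 against ABpIF/+ (adjusted p = 4.13e-05), and both were called by edgeR. *Tap2*, the other chain, was at 21.4 to 29.0 CPM in Ctrl (median 24.8), at 23.0 to 26.7 in ABpIF/+ (median 25.0), and at 38.7, 43.0 and 44.0 in ABpIF/F livers. It too was higher in every ABpIF/F mouse, by 0.75 ± 0.11 against Ctrl (adjusted p = 4.77e-05) and 0.73 ± 0.11 against ABpIF/+ (adjusted p = 9.61e-05), which passed edgeR's p threshold at less than 2-fold. Between ABpIF/+ and Ctrl the differences of both chains were 0.11 ± 0.12 and 0.01 ± 0.09. *Tapbp* did not share the difference. It was at 95.3 to 118 CPM in Ctrl, at 89.1 to 108 in ABpIF/+, and at 90.3, 109 and 129 in ABpIF/F livers, and its fold changes were -0.10 ± 0.11, 0.05 ± 0.13 and 0.15 ± 0.13.

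The call of *Tap1* sat near the 2-fold line. Without ABpIF/F mouse 3, the mouse with the highest *Tap1*, the difference was 0.96 against Ctrl (adjusted p = 0.000158) and 0.85 against ABpIF/+ (adjusted p = 0.00089) in the same edgeR fit, which ended both calls on size alone. With the clock score added as a covariate it was 0.95 (adjusted p = 0.0115) and 0.83 (adjusted p = 0.0315), no longer called by edgeR. Under the same covariate *Tap2* was at 0.61 against Ctrl (edgeR adjusted p = 0.0325), which missed the p threshold. Against Ctrl mouse 2 alone, the Ctrl mouse of the shared strain label, the *Tap1* difference was 1.08 and the *Tap2* difference 0.49. No p-value is given for these, because a single mouse has no spread of its own.

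The immunoproteasome genes differed from the transporter genes in that 2 of the 3 fell in ABpIF/+ livers. *Psmb9*, the β1i subunit, was at 20.0 to 29.8 CPM in Ctrl with a median of 23.1, at 8.11 to 12.7 in ABpIF/+ with a median of 10.0, and at 23.1, 24.6 and 25.5 in ABpIF/F livers. Every ABpIF/+ mouse lay below all 9 other mice, and the ABpIF/F mice lay inside the Ctrl range. *Psmb9* fell by 1.22 ± 0.13 on the log2 scale in ABpIF/+ vs Ctrl (edgeR adjusted p = 1.79e-07), was higher by 1.27 ± 0.15 in ABpIF/F than in ABpIF/+ livers (edgeR adjusted p = 6.17e-06), and was at 0.05 ± 0.15 between ABpIF/F and Ctrl (edgeR adjusted p = 1). *Psmb10*, the β2i subunit, was at 39.7 to 70.5 CPM in Ctrl (median 44.5), at 19.9 to 27.5 in ABpIF/+ (median 25.2), and at 35.1, 33.2 and 36.5 in ABpIF/F livers. The 3 groups did not overlap, with ABpIF/+ lowest and ABpIF/F between. *Psmb10* fell by 1.00 ± 0.13 in ABpIF/+ vs Ctrl (edgeR adjusted p = 3.76e-06), at the 2-fold line, and its differences of -0.50 ± 0.17 between ABpIF/F and Ctrl (adjusted p = 0.036) and 0.50 ± 0.16 between ABpIF/F and ABpIF/+ (adjusted p = 0.028) missed edgeR's threshold.

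*Psmb8*, the β5i subunit, behaved otherwise. It was at 31.8 to 54.9 CPM in Ctrl (median 34.7), at 30.4 to 35.2 in ABpIF/+ (median 33.7), and at 47.0, 53.6 and 55.9 in ABpIF/F livers. The ABpIF/F mice lay above all ABpIF/+ mice and above 5 of the 6 Ctrl mice, the exception being Ctrl mouse 2. Its fold change was -0.18 ± 0.12 in ABpIF/+ vs Ctrl, 0.48 ± 0.15 in ABpIF/F vs Ctrl (edgeR adjusted p = 0.024) and 0.66 ± 0.15 in ABpIF/F vs ABpIF/+ (edgeR adjusted p = 0.00236, less than 2-fold). Against Ctrl mouse 2 alone the ABpIF/F difference in *Psmb8* was -0.11, and that in *Psmb10* was -1.05. The *Psmb9* and *Psmb10* differences between ABpIF/+ livers and Ctrl mouse 2 were -1.56 and -1.52. That mouse held the highest *Psmb9* and *Psmb10* values of all 15 livers. No p-value is given, because a single mouse has no spread of its own. With the clock score added as a covariate *Psmb9* remained at -1.21 in ABpIF/+ vs Ctrl (edgeR adjusted p = 3.33e-07) and at 1.18 in ABpIF/F vs ABpIF/+ (edgeR adjusted p = 0.00623). *Psmb10* in ABpIF/+ vs Ctrl came to -0.99 under the same covariate, and to -0.96, -0.87 or -0.95 without Ctrl mouse 1, Ctrl mouse 2 or ABpIF/+ mouse 6, each below 2-fold.

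Set against the constitutive subunits they replace, the immunoproteasome subunits differed between groups in 8 of 9 tests at an adjusted p under 0.05. The lowest adjusted p of these permutation tests was 0.0179, above the 0.01 used for calls, and the 9 tests share mice. None of the constitutive genes was called at 2-fold, and 0 had a p under the threshold between ABpIF/F and ABpIF/+ livers. *Psmb5* differed from Ctrl by -0.58 ± 0.14 in ABpIF/+ (edgeR adjusted p = 0.00241) and -0.58 ± 0.17 in ABpIF/F livers (adjusted p = 0.0192), *Psmb7* by -0.69 ± 0.12 (adjusted p = 6.79e-05) and -0.67 ± 0.14 (adjusted p = 0.00179), and *Psmb6* by -0.35 ± 0.15 (adjusted p = 0.108) and -0.42 ± 0.19 (adjusted p = 0.156). Between ABpIF/F and ABpIF/+ livers they were 0.00 ± 0.17, 0.02 ± 0.14 and -0.07 ± 0.19. Ratios within a mouse do not depend on library scaling, and the exact permutation test over mice was two-sided, with p-values adjusted over 9 tests. The log2 ratio of *Psmb8* to *Psmb5* counts was -0.79 ± 0.17 in Ctrl (SD, n = 6), -0.39 ± 0.20 in ABpIF/+ (n = 6) and 0.28 ± 0.38 in ABpIF/F livers (n = 3, exact permutation p = 0.0119 against either group, adjusted p = 0.0179). A p of 0.0119 is the smallest that 84 arrangements of 3 and 6 mice allow. In ABpIF/+ vs Ctrl the same ratio was higher by 0.40 (exact permutation p = 0.00433, adjusted p = 0.0179), with *Psmb8* at -0.18 and *Psmb5* at -0.58.

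The log2 ratio of *Psmb9* to *Psmb6* was between -2.22 and -1.73 in Ctrl, between -3.32 and -2.41 in ABpIF/+, and at -1.71, -1.54 and -1.22 in ABpIF/F livers. The 3 ranges did not overlap. ABpIF/+ livers were lower than Ctrl by 0.92 (exact permutation p = 0.00216, the smallest that 924 arrangements allow, adjusted p = 0.0179), and ABpIF/F livers were higher than Ctrl by 0.44 (exact permutation p = 0.0238, adjusted p = 0.0268) and higher than ABpIF/+ by 1.36 (exact permutation p = 0.0119, adjusted p = 0.0179). For *Psmb10* to *Psmb7* the ratio was between -1.49 and -1.11 in Ctrl, between -1.78 and -1.32 in ABpIF/+, and at -1.25, -1.30 and -0.73 in ABpIF/F livers. It was lower by 0.29 in ABpIF/+ vs Ctrl (exact permutation p = 0.0216, adjusted p = 0.0268) and higher by 0.50 in ABpIF/F vs ABpIF/+ (exact permutation p = 0.0119, adjusted p = 0.0179), and it was 0.21 between ABpIF/F and Ctrl (exact permutation p = 0.226). Per kilobase, *Psmb8* stood at 0.321 ± 0.0361 of *Psmb5* in Ctrl, 0.426 ± 0.0603 in ABpIF/+ and 0.687 ± 0.185 in ABpIF/F livers. *Psmb9* stood at 0.157 ± 0.024 of *Psmb6* in Ctrl, at 0.0843 ± 0.0215 in ABpIF/+ and at 0.212 ± 0.0379 in ABpIF/F livers, so the constitutive subunit was the more abundant transcript in every group.

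**Figure D3:**
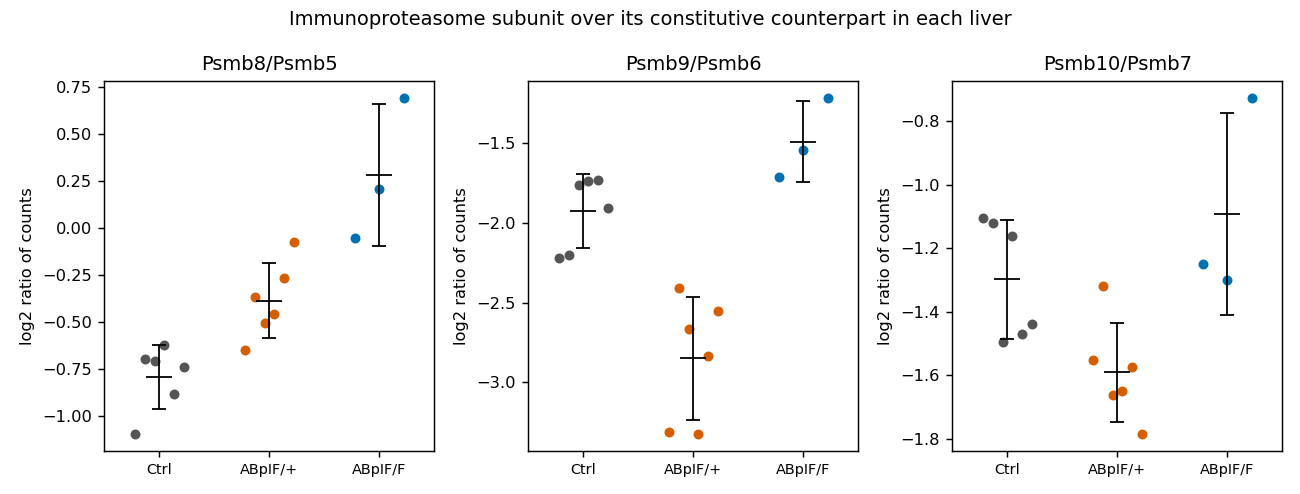
Log2 ratio of counts of each immunoproteasome subunit to its constitutive counterpart in each liver (points are mice, bars mean ± SD of 6, 6 and 3 mice). Psmb9/Psmb6 separates the 3 groups, with ABpIF/+ between -3.32 and -2.41 and ABpIF/F above every Ctrl liver, while Psmb8/Psmb5 is highest in the 3 ABpIF/F livers.

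*Psmb9* and *Tap1*, whose start sites lie 226 bases apart as shown above, did not move together between groups. Counts of *Psmb9* per count of *Tap1* were between 0.679 and 1.01 in Ctrl livers, between 0.266 and 0.392 in ABpIF/+, and 0.443, 0.397 and 0.326 in the ABpIF/F mice. All 9 mice with BrafV600E lay below all Ctrl mice. In ABpIF/+ livers the lower ratio came with less *Psmb9* at a like *Tap1* level, and in ABpIF/F livers with more *Tap1* at a like *Psmb9* level. The ratio was chosen after the values of both genes had been seen and was not tested. Whether the counts of either gene include the stretch where the annotated genes overlap is not known, because the strand setting is not given.

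**Figure D4:**
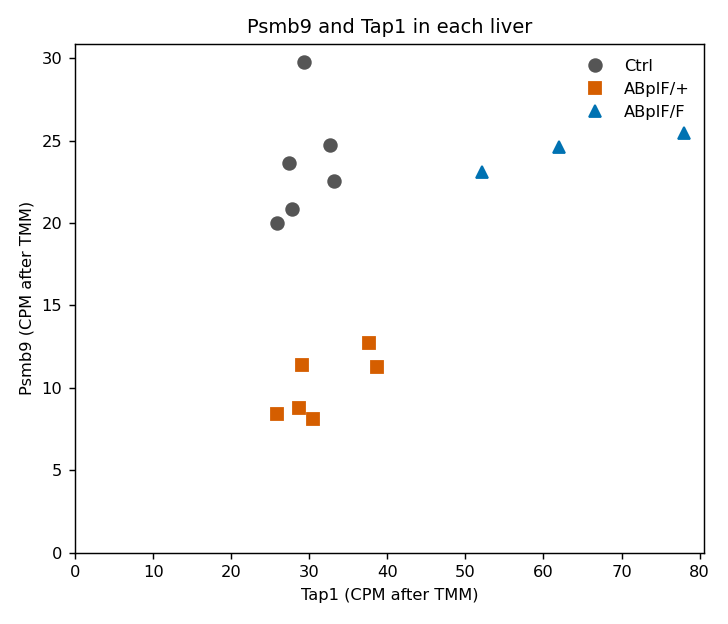
Psmb9 against Tap1 in each liver (CPM after TMM, both axes linear from 0, 1 point per mouse). The 6 ABpIF/+ livers lie below the 6 Ctrl livers at like Tap1, and the 3 ABpIF/F livers lie to their right, at Tap1 of 52.1 to 78.0 CPM with Psmb9 of 23.1 to 25.5 CPM.

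*Nlrc5*, the transactivator, was highest in ABpIF/F livers. It was at 16.2 to 27.3 CPM in Ctrl with a median of 24.6, at 25.6 to 53.3 in ABpIF/+ with a median of 32.5, and at 42.0, 49.7 and 62.1 in ABpIF/F livers. All ABpIF/F mice lay above all Ctrl mice, and ABpIF/+ mouse 2, at 53.3 CPM, lay among them. The difference was 1.10 ± 0.19 in ABpIF/F vs Ctrl (edgeR adjusted p = 0.000274), 0.54 ± 0.16 in ABpIF/+ vs Ctrl (edgeR adjusted p = 0.0173) and 0.56 ± 0.19 in ABpIF/F vs ABpIF/+ (edgeR adjusted p = 0.0468), and that against Ctrl in ABpIF/F livers alone was called. Without ABpIF/F mouse 3 it was 0.94 (edgeR adjusted p = 0.00526), under 2-fold. With the clock score added as a covariate it was 1.17 (edgeR adjusted p = 0.0282), and against Ctrl mouse 2 alone, the lowest of the Ctrl mice, 1.62. In ABpIF/+ livers the median of *Nlrc5* lay above that of Ctrl and those of *Psmb9* and *Psmb10* lay below.

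Of 16 transcription factors of class I genes, 0 were called higher and 1 lower in ABpIF/+ vs Ctrl, 1 higher and 0 lower in ABpIF/F vs Ctrl, and 3 higher and 0 lower in ABpIF/F vs ABpIF/+, with median fold changes of -0.31, 0.42 and 0.56. The shares over the 12316 genes were 8.21% higher and 9.39% lower, 7.53% and 5.04%, and 8.5% and 3.72%. Regardless of fold, 0 factors passed the p threshold higher and 4 lower, 1 higher and 0 lower, and 7 higher and 2 lower, where the shares of genes were 18.3% and 17.8%, 11.1% and 10.3%, and 11.3% and 9.11%. *Irf1*, an interferon-induced factor that binds class I promoters, was at 25.2 to 44.4 CPM in Ctrl, at 18.1 to 29.1 in ABpIF/+ and at 42.7 to 47.6 in ABpIF/F livers, with fold changes of -0.41 ± 0.14 (edgeR adjusted p = 0.0336), 0.46 ± 0.17 (adjusted p = 0.0651) and 0.86 ± 0.17 (adjusted p = 0.000712), none of which was called. *Irf7*, which drives type I interferon genes, was at 55.1, 114 and 190 CPM in ABpIF/F livers and at 26.9 to 51.8 in the 12 others, and was called higher in both comparisons of ABpIF/F mice, by 1.54 ± 0.24 (edgeR adjusted p = 0.000187) and 2.01 ± 0.24 (edgeR adjusted p = 2.45e-05). *Ciita*, the transactivator of class II genes, fell by 2.13 ± 0.35 in ABpIF/+ vs Ctrl (edgeR adjusted p = 6.93e-05) from 0.819 to 1.62 CPM in Ctrl, and was higher by 3.42 ± 0.39 in ABpIF/F vs ABpIF/+ (edgeR adjusted p = 4.06e-06), at 1.79, 2.25 and 4.90 CPM. The other called factor in that comparison was *Irf8*.

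Interferon transcripts were at the limit of detection. Of 7 ligand genes, 6 had a count of 0 in all 15 libraries, where a count of 0 allows up to 0.093 to 0.121 CPM (3 counts of a library's total, counting error only). *Ifng* had a count in 8 of the 15 mice and reached at most 0.222 CPM. Its fold changes of 1.08 ± 1.11, 1.45 ± 1.24 and 0.38 ± 1.18 rest on so few counts that no difference was detectable at this depth. Of 9 interferon receptors, kinases and their inhibitors, *Ifngr1*, a chain of the interferon-γ receptor, was called higher in ABpIF/+ vs Ctrl (1.07 ± 0.12, edgeR adjusted p = 5.66e-07) and in ABpIF/F vs Ctrl (1.67 ± 0.14, edgeR adjusted p = 2.69e-08). *Socs3*, a feedback inhibitor of cytokine receptors, was called higher in ABpIF/+ vs Ctrl (2.31 ± 0.49, edgeR adjusted p = 0.00301). In the 3 comparisons 2, 1 and 0 of the 9 were called higher, where 8.21%, 7.53% and 8.5% of the 12316 genes were. In each comparison 0 of the 9 were called lower, where 9.39%, 5.04% and 3.72% of genes were.

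**Figure D5:**
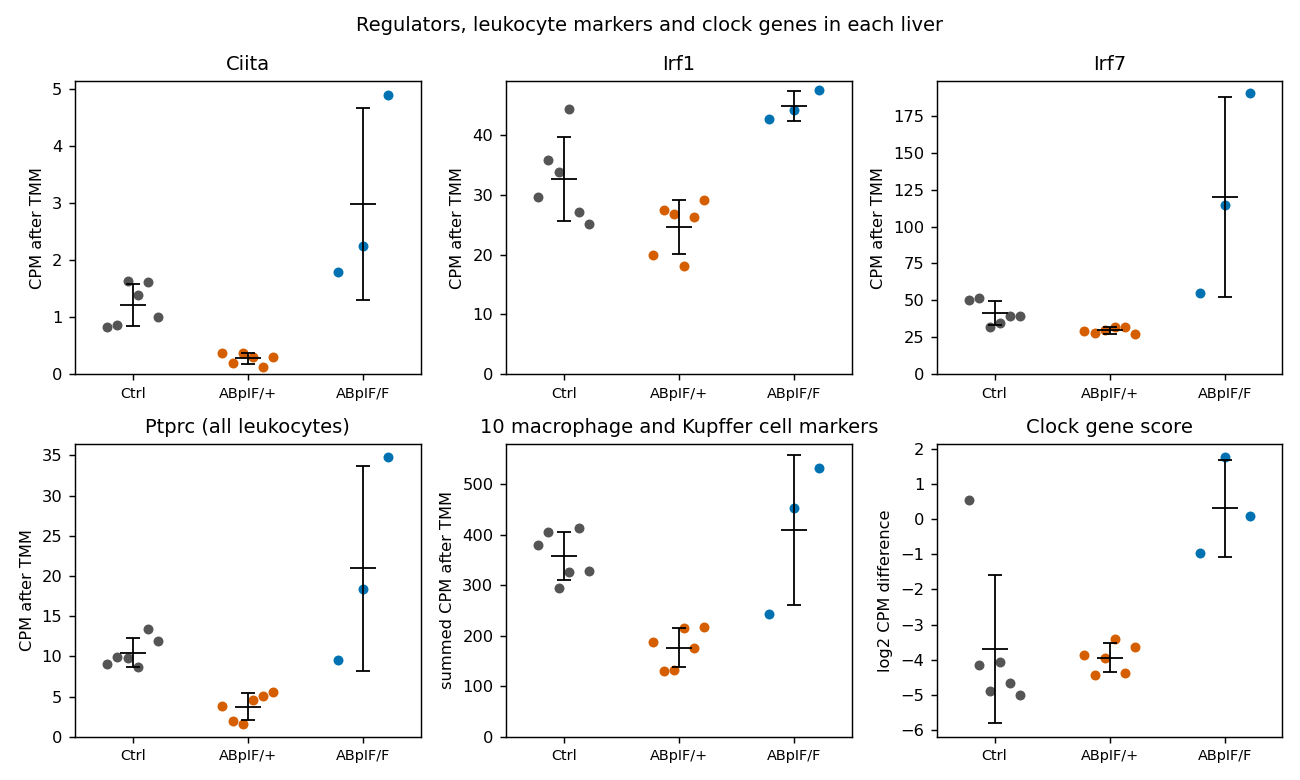
Ciita, Irf1, Irf7 and Ptprc (CPM after TMM), the summed CPM of 10 macrophage and Kupffer cell markers, and the clock gene score (a difference of mean log2 CPM) in each liver, with mean ± SD of 6, 6 and 3 mice. Ciita and Ptprc are lowest in the 6 ABpIF/+ livers, and the clock gene score is high in the 3 ABpIF/F livers and in 1 Ctrl liver.

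Other genes of the pathway were counted in lists. Of 17 other class I and class I-like heavy chains, 5 were called higher and 2 lower in ABpIF/+ vs Ctrl, 5 higher and 1 lower in ABpIF/F vs Ctrl, and 1 higher and 0 lower in ABpIF/F vs ABpIF/+, with median fold changes of 0.19, 0.96 and 0.29. Over the 12316 genes 8.21% were called higher and 9.39% lower in ABpIF/+ vs Ctrl, 7.53% and 5.04% in ABpIF/F vs Ctrl, and 8.5% and 3.72% in ABpIF/F vs ABpIF/+. The 5 higher genes were *H2-Q2*, *H2-Q4*, *H2-Q6*, *H2-T9* and *H2-T10* in both comparisons with Ctrl. *H2-Q4* was at 47.5 to 62.2 CPM in Ctrl and at 101 to 183 in the 9 other mice, and *H2-T9* at 0.247 to 1.01 and 1.74 to 3.59 CPM. *H2-K1* and *H2-D1* were not called, and reads of such close relatives may have been split among them. *Cd1d1*, which presents lipids to natural killer T cells, was lower against Ctrl in both, by 1.81 ± 0.15 in ABpIF/+ (edgeR adjusted p = 7.61e-09) and 1.24 ± 0.19 in ABpIF/F livers (edgeR adjusted p = 6.43e-05). *H2-T24* was likewise lowest in ABpIF/+ livers, at 3.95 to 6.29 CPM in Ctrl, 0.453 to 1.79 in ABpIF/+ and 7.21, 5.18 and 10.1 in ABpIF/F livers, and was called in ABpIF/+ vs Ctrl (-2.10 ± 0.27, edgeR adjusted p = 2.85e-06) and in ABpIF/F vs ABpIF/+ (2.73 ± 0.30, edgeR adjusted p = 3.43e-06). Of 7 genes for peptide trimming and folding in the endoplasmic reticulum, of 11 other subunits of the 20S core and of 9 proteasome activators and assembly factors, 0 were called in any comparison, with list medians between -0.49 and 0.36. Regardless of fold, 8 of these 27 genes passed the p threshold in ABpIF/+ vs Ctrl and 4 in ABpIF/F vs Ctrl, each of them lower, where 17.8% and 10.3% of the 12316 genes were lower, and 0 passed it in ABpIF/F vs ABpIF/+.

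Transcripts of other cell types also differed between groups, and in bulk tissue fewer cells of a type and less RNA per cell cannot be told apart. *Ptprc*, the gene of the CD45 antigen on leukocytes, was at 8.66 to 13.5 CPM in Ctrl and at 1.61 to 5.63 in ABpIF/+ livers. In ABpIF/F livers it was at 9.59, 18.4 and 34.8 CPM. ABpIF/+ livers were lowest, as for *Psmb9* and *Psmb10*, whereas the other members overlapped between ABpIF/+ and Ctrl livers. The 10 macrophage and Kupffer cell markers were led by *Clec4f* and *Csf1r*. They summed to 294 to 413 CPM in Ctrl, 130 to 217 in ABpIF/+ and 244 to 532 in ABpIF/F livers. Of the 10, 6 were called lower in ABpIF/+ vs Ctrl and 6 higher in ABpIF/F vs ABpIF/+. The shares over the 12316 genes averaging 1 CPM or more were 9.39% and 8.5%. The 11 T and NK cell markers, each averaging under 1 CPM, summed to 3.39 to 6.28, 1.47 to 3.21 and 5.22 to 17.6 CPM. Of the 11, 2 were called lower in ABpIF/+ vs Ctrl, 2 higher in ABpIF/F vs Ctrl and 6 higher in ABpIF/F vs ABpIF/+. The shares over the 12316 genes were 9.39%, 7.53% and 8.5%, but that set holds none of these 11 markers. Of all 27179 genes, 1454, 1236 and 1491 were called in the same directions. Endothelial markers summed to 144 to 220, 72.3 to 166 and 173 to 241 CPM, stellate cell and fibroblast markers to 206 to 272, 58.5 to 124 and 229 to 361, B cell markers to 2.09 to 4.68, 0.271 to 2.08 and 3.50 to 7.84, and dendritic cell markers to 8.12 to 10.1, 3.99 to 12.8 and 9.57 to 20.1. The dendritic sum was led by *Clec9a*, at a mean of 3.55 CPM in Ctrl and 5.43 in ABpIF/+ livers, and *Zbtb46*. Of the 6 dendritic markers, 2 were called lower and 0 higher in ABpIF/+ vs Ctrl. In ABpIF/F vs ABpIF/+, 4 were called higher and 0 lower. Over the 12316 genes 9.39% were lower and 8.5% higher in these, but only 3 of the 6 averaged 1 CPM. Neutrophil markers summed to 2.40 to 4.29, 2.34 to 7.15 and 4.67 to 81.9 CPM, and ABpIF/F mouse 1 lay within the ABpIF/+ range. Cholangiocyte markers, at 35.8 to 68.4, 29.9 to 145 and 205 to 1150 CPM, were highest in ABpIF/F livers. Most of that sum was *Spp1*, at a mean of 660 of 711 CPM in ABpIF/F livers. No marker of any list was at 0 in all libraries. The part of these cells in the class I results was not tested.

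The ABpIF/F mice differed among themselves. The labels do not say which of them had which age or tumor burden, so neither was set against these differences. With each member's log2 CPM standardized over the 15 mice, the mean over the 10 members was 1.58 in ABpIF/F mouse 3, 1.00 in mouse 2 and 0.37 in mouse 1, and mouse 3 was the highest of all mice in 6 of the 10 members. The same mouse had the highest *Ptprc* and *Irf7* values. Ctrl mouse 2 followed with a mean of 0.91 and was highest in the other 4 members, *H2-K1*, *B2m*, *Psmb9* and *Psmb10*. ABpIF/+ mouse 1 was lowest with -0.96. The genes whose standardized profile over the 15 mice lay nearest to the members' mean, among 9558 genes averaging 5 CPM or more, were *Isg15* (root mean square difference 0.387), *H2-T23* (0.404), *Krt8* (0.407), *Plgrkt* (0.417), *Irf7* (0.419), *Maged2* (0.42), *Septin4* (0.42) and *Arl8a* (0.431). *Isg15*, an interferon-induced ubiquitin-like modifier, was at 7.24 to 16.5 CPM in Ctrl, 2.60 to 6.42 in ABpIF/+ and 19.4 to 45.5 in ABpIF/F livers. *H2-T23*, the heavy chain that natural killer cells read through NKG2A, was at 213 to 364, 164 to 248 and 303 to 399 CPM, and the ABpIF/F mice overlapped with Ctrl but not with ABpIF/+ mice.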

How the data were processed

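RNA of 15 livers was sequenced as paired ends from stranded mRNA libraries. The authors trimmed the reads, aligned them to mm10 with HISAT2 and counted them per gene with featureCounts 2.0.8, and the deposited values are raw counts of 27179 genes without normalization. The annotation and strand setting of the counting are not given in the sources used here. The tables hold 1 column per mouse although 23 samples are listed, 8 mice being named by 2 samples, and the mouse is the replicate. Both deposited tables were compared over 10 columns and no count differed, and 5 per-sample columns of the second were not used. Its columns of the authors' own comparisons hold fold changes and p-values and were not used either.

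The 10 members and all gene lists were chosen with earlier results of these data known. In R 4.3.3 with edgeR 4.0.16, 1 quasi-likelihood model in its older form was fitted to the 3 groups without covariates, on TMM-scaled libraries with robust dispersions and without a filter on genes. The SE is the log2 fold change divided by the square root of F. P-values were adjusted over 27179 genes, and calls required one below 0.01 and a change of 2-fold or more in either direction. Log2 CPM used a prior count of 2. The step was tested on simulated data with known changes. Expressed genes had a mean of at least 1 CPM, and lengths came from the longest principal transcript of GENCODE M21. Named genes are all members, *Psmb5*, *Psmb6*, *Psmb7*, *Irf1*, *Ifng*, *Icmt*, up to 3 called genes per pathway list, up to 2 genes per marker list and the 8 nearest profiles. Genes outside that rule, among them *Irf8*, *H2-Q2*, *H2-Q4*, *H2-Q6* and *H2-T10*, were named after their values were seen. One item of the lists is not reported here.

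Alternatives were RLE, upper quartile and library size scaling, DESeq2 1.42.0, genes passing filterByExpr, the newer quasi-likelihood form, no robust estimation, other thresholds, fits on the groups compared, leaving out each mouse, mice of the shared strain label or named by 2 samples, and the clock gene score in the model. Figures were drawn with matplotlib 3.10.9. Nothing in the labels places libraries in sequencing batches. The paper describes the Ctrl mice as siblings, but no source used here says which mice shared a litter. P-values weigh group differences against the spread between these mice, with litters not accounted for.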

Additional observations from a re-analysis of the deposited data

Results flagged for a closer look

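Of 26 groups of 6 mice examined, 3 held a mouse set apart from the others of its group by Dixon's test at its 95% critical value, where chance gives about 1 in 20. *Psmb8* in Ctrl mouse 2 was at 54.9 CPM, a gap of 0.811 of the group's range to the next mouse. *Nlrc5* in the same Ctrl mouse was at 16.2 CPM, the lowest of its group by 0.718 of the range. *Psmb10* in ABpIF/+ mouse 6 was at 19.9 CPM, the lowest of its group by 0.629 of the range. Ctrl mouse 2 is the Ctrl mouse that shares its strain label with the ABpIF/+ and ABpIF/F mice, and that label cannot be told apart from the mouse itself.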

How the results depend on the processing

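No paired analysis was possible because the labels number no mice and no source used here says which mice of different groups shared a litter. Each comparison called 2 members. A log2 fold change of at least 2 left 0 in each, and any fold gave 4 in ABpIF/F vs ABpIF/+. Keeping the genes that pass filterByExpr gave 1 in ABpIF/F vs ABpIF/+, where *Tap1* came to 0.98. The clock gene score as a covariate left 1 (*Psmb9*) in ABpIF/+ vs Ctrl, 0 in ABpIF/F vs Ctrl and 1 (*Psmb9*) in ABpIF/F vs ABpIF/+. Calls over all genes went from 2729 to 2739, from 1883 to 736 and from 1969 to 517 in the same order. The score largely followed the ABpIF/F group, so lost calls cannot be assigned to score or genotype. Mice of the shared strain label, with 1 Ctrl mouse assumed to vary like the other groups, gave 1 (*Psmb10* lower) in ABpIF/F vs Ctrl and 1 (*Psmb9*) in ABpIF/F vs ABpIF/+, and moved the *Psmb9* to *Psmb6* log2 ratio of ABpIF/F vs Ctrl from 0.44 to 0.71. The cause was not tested.

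Leaving out each mouse gave 1 to 2 called members in ABpIF/+ vs Ctrl, 0 to 2 in ABpIF/F vs Ctrl (0 without ABpIF/F mouse 3) and 1 to 2 in ABpIF/F vs ABpIF/+, where *Tap1* fell to 0.96, 0.99, 0.98, 0.94 or 0.85 without ABpIF/+ mice 1, 3, 4, 5 or ABpIF/F mouse 3. Of 870 member fold changes under alternatives 41 changed sign, 0 of them called in either fit, the largest being *Psmb8* in ABpIF/F vs Ctrl (0.48, and -0.11 with the shared strain label). Of 99 ratio values 0 changed sign. Scaling by library size alone moved the median of the 12316 genes averaging 1 CPM or more to -0.16 in ABpIF/+ vs Ctrl and 0.15 in ABpIF/F vs ABpIF/+. With 3 ABpIF/F mice, 1 mouse can decide a call near 2-fold.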
